A study of Homo sapiens with 16 samples.

Results

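VDAC1, VDAC2 and VDAC3, the 3 voltage-dependent anion channels, and NEDD4 and NEDD4L, a pair of closely related ubiquitin ligases, were followed through every group of the study. They were taken by name from the expression table, and all 5 were found among its 17552 genes with values. RNA was measured in 16 libraries of HT-1080, an established human fibrosarcoma line that dies by ferroptosis when cystine uptake is blocked. The 8 groups hold 2 libraries each. Cells carried a non-silencing siRNA (siNS), an siRNA to DCAF8 (siDCAF8), siRNAs to both DCAF8 and LSH (siDCAF8+siLSH), or excess WDR76 (oeWDR76), and each of these was left untreated or given 10 µM erastin for 24 h. No empty-vector group accompanies oeWDR76, so siNS served as its reference. LSH is the chromatin remodeler encoded by HELLS, DCAF8 picks substrates for ubiquitin ligases of the CRL4 kind, and WDR76 is a WD40-repeat protein.

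VDACs are barrel-shaped channels of the outer mitochondrial membrane through which ATP, ADP and other metabolites pass, and they are among the abundant proteins of that membrane. Erastin, named for its lethality to cells carrying oncogenic RAS, was reported early on to bind VDAC2 and VDAC3, and it also blocks the cystine importer system xc-. NEDD4 is a ligase of the HECT class that was reported to ubiquitylate VDAC2 and VDAC3 in melanoma cells given erastin, with the transcription factor FOXM1 reported to raise NEDD4 there. NEDD4L is its close paralog and is best known for removing the epithelial sodium channel from the cell surface. The RNA measured here does not show protein levels or ubiquitylation.

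All values are FPKM, a read count scaled by transcript length and library size, so levels can be set beside each other between genes. A difference is a log2 difference of FPKM plus 1 with its standard error (SE), from limma fitted over the 11260 genes whose mean reached 1 FPKM, and "called" means a Benjamini-Hochberg adjusted p under 0.05. All 5 members passed that filter. Whether the libraries of 2 groups overlap is given as a description only, and the share of all genes without overlap was not counted. The labels do not say whether a group's 2 libraries are separate cultures, and the p-values thus cover the spread between libraries, which may be technical. In bulk RNA, fewer cells of a kind and less RNA per cell cannot be told apart. Several comparisons share the siNS libraries, and their values are given side by side for that reason.

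DCAF8, the first targeted gene, stood at 38.9 and 40.4 FPKM in siNS against 11.8 and 12.2 in siDCAF8 and 17.4 and 14.3 in siDCAF8+siLSH. WDR76 stood at 3.52 and 2.89 FPKM in siNS and at 268 and 267 in oeWDR76. Without erastin it was also above siNS in siDCAF8 (0.55, limma adjusted p = 0.00032) and siDCAF8+siLSH (1.04, adjusted p = 3.21e-07). In untreated oeWDR76, HELLS was above siNS (1.24, adjusted p = 1.39e-10) and DCAF8 below it (-0.31, adjusted p = 0.00265). HELLS stood at 4.05 and 3.98 FPKM in siNS, at 6.83 and 7.45 in siDCAF8 and at 4.05 and 4.07 in siDCAF8+siLSH, so the untreated libraries labelled siDCAF8+siLSH were below siDCAF8 (-0.68, adjusted p = 1.59e-06) but not below siNS (0.01, adjusted p = 0.884). With erastin they were below siNS too (-0.47, adjusted p = 2.14e-05). Of the mesenchymal markers VIM ran from 1273 to 2067 FPKM, while EPCAM reached at most 0.2 and CDH1 at most 0.51. The melanocyte genes MLANA and PMEL reached at most 2.27 and 3.52 FPKM. The oeWDR76 libraries stood apart: their totals were 495857 to 503867 FPKM against 436290 to 455662 in the other 12, and their levels rose with transcript GC content by 0.19 to 0.23 log2 per 10% GC, against -0.16 to 0.03 elsewhere. That slope bears on NEDD4, whose transcripts hold 37.8% GC against a median of 49.2% over all tested genes. The median of all tested genes in oeWDR76 against siNS was shifted by 0.07 without erastin and 0.11 with it.

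**Figure D1:**
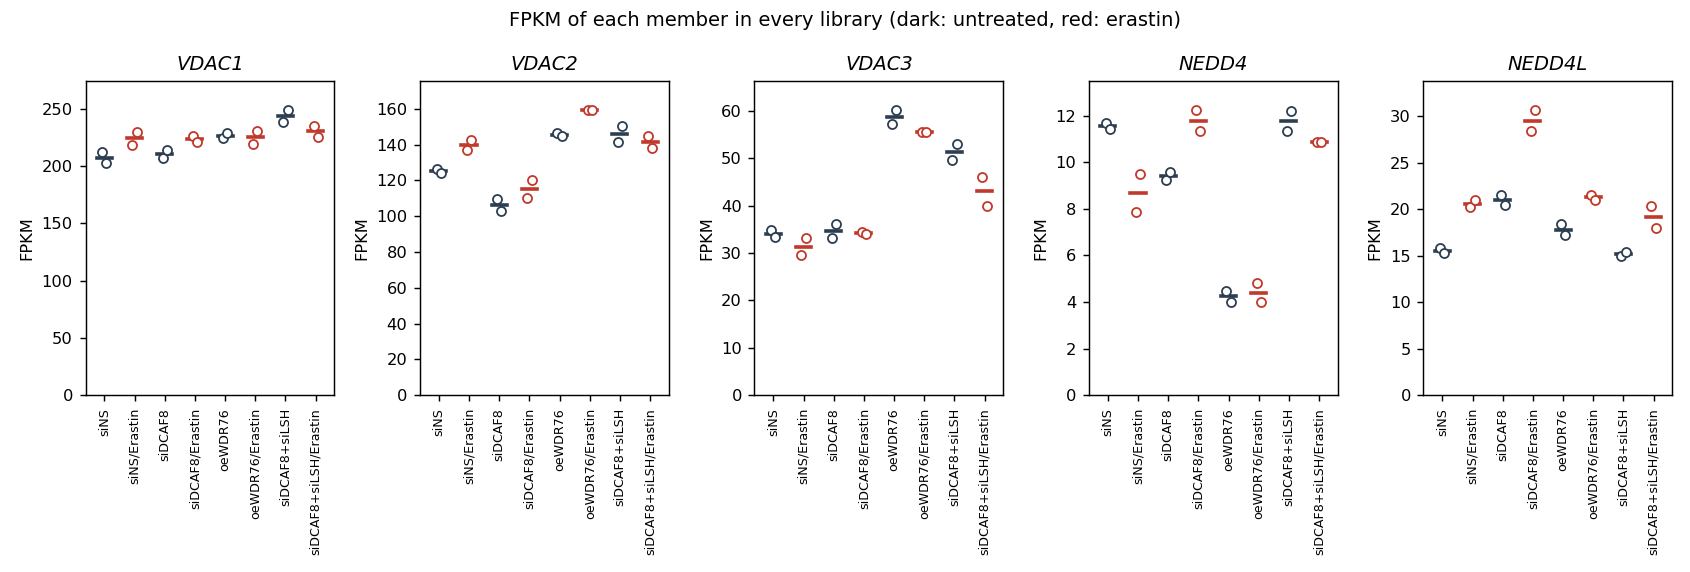
FPKM of VDAC1, VDAC2, VDAC3, NEDD4 and NEDD4L (y axes, each from 0) in the 8 groups (x axis); open circles are libraries and bars are group means of n = 2, dark for untreated and red for erastin. VDAC1 stays between 202 and 249 FPKM, VDAC3 is highest in oeWDR76, NEDD4 is lowest in oeWDR76, and NEDD4L is highest in siDCAF8 with erastin.

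The 5 genes differ widely in level and in how much they vary. VDAC1 ran from 202 to 249 FPKM over the 16 libraries, with its mean above that of 97.7% of the tested genes. VDAC2 ran from 103 to 160 FPKM and VDAC3 from 29.5 to 60.3. NEDD4L, at 14.9 to 30.7 FPKM, was above NEDD4, at 4.0 to 12.3, in every library. The coefficient of variation over all libraries was 5.31% for VDAC1, 12.9% for VDAC2, 24.9% for VDAC3, 33.8% for NEDD4 and 22.1% for NEDD4L. The most abundant member thus varied least and the scarcest varied most.

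VDAC1 (gene 7416) lies on the minus strand of chromosome 5 at chr5:133971875-134005133 in GRCh38. It is the most studied channel of the family and a docking site for hexokinases. In siNS it stood at 212 and 202 FPKM, and with erastin at 219 and 230. The erastin libraries lay above the untreated ones, but the difference of 0.11 (SE 0.05) was not called (adjusted p = 0.0908). It was called under median-ratio scaling (0.15, adjusted p = 0.0292) and with the GC and length trend removed (0.16, adjusted p = 0.00515). In siDCAF8 the values were 207 and 214 FPKM without and 226 and 221 with erastin, a difference of 0.08 that was not called (adjusted p = 0.195). In siDCAF8+siLSH the order was the opposite, 239 and 249 without and 235 and 225 with erastin, and again no difference was called (-0.08, adjusted p = 0.274). In oeWDR76 the values were 224 and 229 FPKM without erastin and 219 and 231 with it, overlapping. The order of the group means ran from siNS to untreated siDCAF8+siLSH. From siDCAF8 with erastin upward through siNS with erastin, both oeWDR76 groups and siDCAF8+siLSH with erastin, each neighbour overlapped the next.

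The GENCODE v29 annotation holds 13 genes named as pseudogenes of VDAC1, 4 of VDAC2 and 1 of VDAC3. They were counted by name, and whether each is an intronless copy was not checked. The deposited values do not show how reads that fit both a VDAC gene and such a copy were shared, so the VDAC levels carry that uncertainty.

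VDAC2 (gene 7417, plus strand, chr10:75210154-75231448) is the isoform known for holding BAK at mitochondria and is one of those reported to bind erastin. In siNS it stood at 126 and 124 FPKM, and with erastin at 137 and 142. The groups did not overlap, and the rise of 0.16 (SE 0.05) was called (limma, adjusted p = 0.0312). Each of the 4 siNS libraries decided this call: leaving out one of them at a time gave 0.13 to 0.19 with adjusted p from 0.0563 to 0.161. In siDCAF8 the values were 110 and 103 FPKM without and 110 and 120 with erastin (0.11, adjusted p = 0.114). In oeWDR76 they were 146 and 145 without and 159 and 160 with erastin, which did not overlap, yet the difference of 0.13 was not called (adjusted p = 0.300). In siDCAF8+siLSH they were 141 and 151 without and 145 and 138 with erastin, overlapping. VDAC2 was lowest in the siDCAF8 groups and highest in oeWDR76 with erastin. Only siNS with erastin and siDCAF8+siLSH with erastin, and untreated oeWDR76 and untreated siDCAF8+siLSH, were neighbours with overlapping values.

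VDAC3 (gene 7419, plus strand, chr8:42391761-42405937) is the least abundant isoform and the other one reported to bind erastin. It stood at 34.8 and 33.4 FPKM in siNS and at 29.5 and 33.2 with erastin, which did not overlap. The difference of -0.12 was not called (adjusted p = 0.206). In siDCAF8 the values were 33.2 and 36.2 FPKM without and 34.5 and 34.0 with erastin, overlapping. In oeWDR76 they were 57.2 and 60.3 FPKM without and 55.6 and 55.6 with erastin, a difference of -0.08 that was not called (adjusted p = 0.683). In siDCAF8+siLSH VDAC3 fell by 0.25 (SE 0.07, limma adjusted p = 0.0219), from 49.6 and 53.0 FPKM to 46.1 and 40.0. That call was lost without the second untreated library of siDCAF8+siLSH (-0.20, adjusted p = 0.158), without its second erastin library (-0.15, adjusted p = 0.254), when low genes were kept in (adjusted p = 0.0565) and in a fit of only those groups (adjusted p = 0.0534).

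The largest estimated erastin difference of a VDAC in any of the 4 genotypes was the -0.25 of VDAC3 in siDCAF8+siLSH, with a 95% interval from -0.40 to -0.10 and a value of -0.35 without the first erastin library of that group. Of the 3 channels, 1 was called in siNS, 0 in siDCAF8, 0 in oeWDR76 and 1 in siDCAF8+siLSH, where 37.5% (15.1% higher, 22.4% lower), 40.9% (18.3% and 22.5%), 1.45% (0.471% and 0.977%) and 20.2% (10.6% and 9.54%) of all tested genes were called. In siDCAF8 VDAC1 (0.12, adjusted p = 0.0461) and VDAC2 (0.17, adjusted p = 0.0287) were called under quantile normalization, and VDAC2 also without the first erastin library of siDCAF8 (0.18, adjusted p = 0.0468). For the zero counts, the unadjusted p was below 0.05 for 5550 genes in siDCAF8 and 1527 in oeWDR76 over all genes tested. Averaged over the 4 genotypes, VDAC2 rose by 0.09 (SE 0.03, adjusted p = 0.0146) and VDAC3 fell by 0.12 (SE 0.04, adjusted p = 0.0151), with 44% of all genes called (20.3% higher, 23.8% lower). VDAC1 did not pass (0.03, adjusted p = 0.416). The intervals of the averaged differences ran from -0.03 to 0.08 for VDAC1, from 0.03 to 0.15 for VDAC2 and from -0.19 to -0.04 for VDAC3 (95%).

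**Figure D2:**
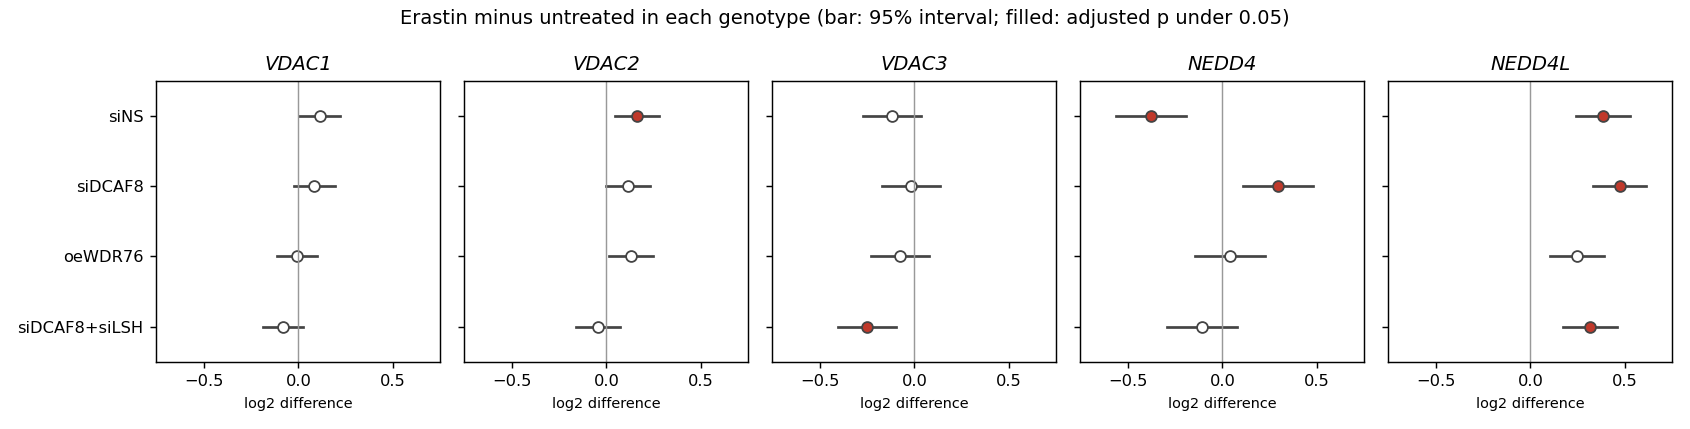
Erastin minus untreated on the log2 scale (x axis) for each member in each genotype (y axis); bars are 95% intervals from limma and filled points have an adjusted p under 0.05. NEDD4 lies at -0.38 in siNS and at 0.29 in siDCAF8, NEDD4L lies above 0 in all 4 genotypes, and the VDAC values lie between -0.25 and 0.16.

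The make-up of the VDAC pool was compared within each library, since a share of the summed FPKM of the 3 channels does not change with a single scaling factor per library. It can change under quantile normalization or with the GC and length trend removed, and the shares were not retested under these. In siNS, VDAC1 made up 56.6% of the sum, VDAC2 34.1% and VDAC3 9.30% (means of n = 2, SD 0.42, 0.45 and 0.03). With erastin the shares were 56.7%, 35.4% and 7.92%. The VDAC3 share fell in 4 of 4 genotypes, by 1.38 percentage points in siNS, 0.69 in siDCAF8, 1.003 in oeWDR76 and 1.25 in siDCAF8+siLSH. The mean difference was -1.08 points (exact permutation of the erastin labels within genotypes, two-sided p = 0.00154, the smallest the 1296 regroupings can give, adjusted p = 0.00772 over 5 quantities). The VDAC2 share rose in 4 of 4 genotypes, by 1.23, 0.63, 2.42 and 1.01 points in the same order (mean 1.32, exact permutation p = 0.0170, adjusted p = 0.0283). Leaving out siNS gave p = 0.0648, leaving out oeWDR76 gave 0.96 points with p = 0.0926, and leaving out siDCAF8+siLSH gave p = 0.0556, each by exact permutation. The call was also lost without the second untreated (1.05 points) or the second erastin (1.03 points) library of siDCAF8, where the libraries of the 2 treatments overlapped. The VDAC1 share moved in 1 of 4 genotypes in the direction of its mean of -0.24 points (exact permutation p = 0.535). The summed VDAC level was 366.6 ± 9.79 FPKM in siNS and 395.5 ± 14.5 with erastin (SD, n = 2), 352.0 ± 2.50 and 372.9 ± 3.61 in siDCAF8, 430.7 ± 4.34 and 440.2 ± 8.45 in oeWDR76, and 441.3 ± 16.6 and 414.9 ± 16 in siDCAF8+siLSH. The group mean was higher with erastin in 3 genotypes and lower in siDCAF8+siLSH, and the mean log2 difference was 0.03 (exact permutation p = 0.256). Without siDCAF8+siLSH it was 0.07 (exact permutation p = 0.00926).

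NEDD4 (gene 4734, minus strand, chr15:55826917-55993746) spans 166830 bases and is listed with 6 transcripts in the table. NEDD4L (gene 23327, plus strand, chr18:58044378-58401540) spans 357163 bases and is listed with 10. Exons of NEDD4L overlap a pair of antisense genes, AC090236.1 and AC107896.1, and since no source used here says whether the libraries are stranded, reads from them cannot be told apart from reads of NEDD4L. One FPKM value is given per gene, so the use of different starts is not resolved. RefSeq (GRCh38.p14) lists 3 starts for NEDD4 and 5 for NEDD4L. The windows below are shown because NEDD4 is the only member with called erastin differences of opposite sign, a fall in siNS and a rise in siDCAF8. Its outer and inner starts differ in base composition, and whether this bears on its level was not tested. A NEDD4L window and a VDAC2 window, for the ligase and the channel that rose with erastin, stand beside the NEDD4 windows. Each runs 5′ to 3′ on the gene's strand from at most 250 bases before the start, with exonic bases removed, and capitals mark a CCAAT box, a GC box (GGGCGG) or the forkhead letters (TGTTTA) on either strand.
NEDD4 outer start, chr15:55993747-55993862: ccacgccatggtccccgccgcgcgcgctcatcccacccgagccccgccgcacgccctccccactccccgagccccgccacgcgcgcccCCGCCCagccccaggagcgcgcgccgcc
NEDD4 inner start, chr15:55917137-55917386: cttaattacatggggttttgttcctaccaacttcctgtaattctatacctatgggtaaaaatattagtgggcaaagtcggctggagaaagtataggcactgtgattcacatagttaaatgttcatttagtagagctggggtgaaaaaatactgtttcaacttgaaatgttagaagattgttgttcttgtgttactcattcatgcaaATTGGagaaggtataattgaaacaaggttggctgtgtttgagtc
NEDD4L inner start, chr18:58255266-58255439: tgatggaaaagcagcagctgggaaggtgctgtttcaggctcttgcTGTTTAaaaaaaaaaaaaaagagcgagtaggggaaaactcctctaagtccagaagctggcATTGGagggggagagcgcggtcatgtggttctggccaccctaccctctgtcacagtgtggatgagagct
VDAC2 outer start, chr10:75209920-75210153: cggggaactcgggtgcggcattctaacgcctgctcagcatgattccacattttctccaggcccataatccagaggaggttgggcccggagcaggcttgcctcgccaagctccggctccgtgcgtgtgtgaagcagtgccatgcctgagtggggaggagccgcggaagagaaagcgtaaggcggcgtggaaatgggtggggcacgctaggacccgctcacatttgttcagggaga

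The outer NEDD4 window has 84.5% GC and 20 CpG dinucleotides in 116 bases, and the inner one has 36.0% GC and 1 CpG in 250 bases, against a median of 58% GC over 35116 RefSeq windows of 250 bases. The outer window holds 1 match to the GC box GGGCGG (on the opposite strand), which 42.6% of all windows hold. The inner window holds 1 match to the CCAAT box, on the opposite strand,, which 32% hold. The forkhead letters TGTTTA, which 11% of all windows hold, are in neither NEDD4 window, and TGTTTAC, held by 2.98%, is in none of the windows shown. The NEDD4L window shown, chosen after the matches were seen, has TGTTTA once, CCAAT once on the opposite strand and the antioxidant response letters TGACNNNGC once, which 10.9% of windows hold. The windows of the other NEDD4L starts searched hold neither TGTTTA nor TGACNNNGC. In the VDAC2 window, 61.5% GC, none of these letters was found. The trimmed windows are shorter than those behind the shares, both strands were searched, TGTTTA lies within TGTTTAC, and a match is a description of letters, not of a bound site.

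NEDD4 fell with erastin in control cells and rose with erastin when DCAF8 was depleted. In siNS it stood at 11.7 and 11.4 FPKM, and with erastin at 7.88 and 9.49. The groups did not overlap, and the fall by 0.38 was called (SE 0.09, limma adjusted p = 0.00289). In siDCAF8 it stood at 9.25 and 9.60 FPKM, and with erastin at 12.3 and 11.3. The groups again did not overlap, and the rise of 0.29 was called (SE 0.09, adjusted p = 0.0130). In oeWDR76 it stood at 4.47 and 4.02 FPKM without and 4.80 and 4.0 with erastin, overlapping (0.04, adjusted p = 0.889). In siDCAF8+siLSH it stood at 11.4 and 12.2 without and 10.9 and 10.9 with erastin, a difference of -0.11 that was not called (adjusted p = 0.423). Averaged over the 4 genotypes the difference was -0.04 (adjusted p = 0.511), since the genotypes went opposite ways.

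The erastin responses of NEDD4 were compared directly. The response in siDCAF8 exceeded that in siNS by 0.67 (SE 0.12, limma adjusted p = 0.00141, 95% interval 0.41 to 0.93), a difference called for 20.8% of all genes (11% higher, 9.84% lower). It stayed called in each of the 24 alternatives run, with values of 0.55 to 0.79 and adjusted p up to 0.0101. The response in oeWDR76 exceeded that in siNS by 0.42 (SE 0.12, adjusted p = 0.0332, 14.1% of genes called, 9.04% higher and 5.11% lower), and that in siDCAF8+siLSH was below that in siDCAF8 by 0.40 (SE 0.12, adjusted p = 0.0291, 23.5% called, 14.2% higher and 9.24% lower). The first of these lost its call without any of 5 libraries (siNS first or second, siNS with erastin first, oeWDR76 second, oeWDR76 with erastin first), with values of 0.30 to 0.43. The second lost its call without siDCAF8 first, siDCAF8 with erastin first, siDCAF8+siLSH second or siDCAF8+siLSH with erastin first or second, with values of -0.40 to -0.35, and stood at -0.18 with the GC and length trend removed (adjusted p = 0.391). For VDAC1, VDAC2, VDAC3 and NEDD4L, 0 of the 12 differences in response were called. The interval of the NEDD4L difference between siDCAF8 and siNS ran from -0.11 to 0.29. For siDCAF8+siLSH minus siDCAF8, the 95% intervals of VDAC1 (-0.32 to -0.02) and VDAC3 (-0.45 to -0.01) lay below 0. Over the alternatives, the lowest limma adjusted p of VDAC1 was 0.0478 in that comparison and 0.0349 for oeWDR76 minus siNS.

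The NEDD4 calls within siNS and siDCAF8 rest on few libraries. Without the first erastin library of siNS the fall in siNS was -0.26 (adjusted p = 0.0587). Without the first untreated or the first erastin library of siDCAF8 the rise in siDCAF8 was 0.27 (adjusted p = 0.0796) or 0.24 (adjusted p = 0.0996). With the GC and length trend removed the rise in siDCAF8 was 0.14 (adjusted p = 0.161) and the fall in siNS stayed called. The GC slopes of the siDCAF8 libraries were 0.03 and -0.02 log2 per 10% GC without erastin and -0.14 in both with erastin. In siNS, where NEDD4 fell, the slopes were -0.04 and 0.02 without erastin and -0.03 and -0.10 with it. The cause of the NEDD4 differences was not tested.

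NEDD4L rose with erastin in siNS, siDCAF8 and siDCAF8+siLSH, and was not called in oeWDR76. In siNS it stood at 15.9 and 15.3 FPKM, and with erastin at 20.2 and 21.0, a rise of 0.38 (SE 0.07, limma adjusted p = 0.000338). In siDCAF8 it stood at 21.6 and 20.5 without and 28.4 and 30.7 with erastin, a rise of 0.47 (adjusted p = 5.73e-05). In siDCAF8+siLSH it stood at 14.9 and 15.4 without and 20.3 and 17.9 with erastin, a rise of 0.31 (adjusted p = 0.00351), which was 0.23 (adjusted p = 0.0608) without the first erastin library. In oeWDR76 it stood at 18.4 and 17.2 without and 21.6 and 21.0 with erastin, and the difference of 0.24 was not called (adjusted p = 0.0898). With the GC and length trend removed that difference was called (limma adjusted p = 0.0491). The erastin mean lay above the untreated mean in 4 of 4 genotypes. Averaged over them the rise was 0.35 (SE 0.03, adjusted p = 4.54e-07), and over 23 alternatives it stayed between 0.33 and 0.37, called in each.

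Over both ligases and the 3 channels, erastin called 3 of 5 members in siNS, 2 in siDCAF8, 0 in oeWDR76 and 2 in siDCAF8+siLSH, and 3 of 5 in the average, beside 37.5%, 40.9%, 1.45%, 20.2% and 44% of all genes. The 2 of 5 in siDCAF8 is at the share over all genes. NEDD4L made up 1 call in each of siNS, siDCAF8 and siDCAF8+siLSH.

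The ratio of NEDD4 to NEDD4L FPKM fell with erastin in 4 of 4 genotypes. In siNS it was 0.742 ± 0.008 and with erastin 0.421 ± 0.044 (SD, n = 2), and in siDCAF8+siLSH it was 0.777 ± 0.024 and 0.571 ± 0.049. In siDCAF8 it was 0.449 ± 0.028 and 0.400 ± 0.045, and in oeWDR76 it was 0.238 ± 0.007 and 0.207 ± 0.023. The mean log2 difference was -0.41 (exact permutation within genotypes, p = 0.00309, adjusted p = 0.00772). The ratio was not retested under quantile normalization or with the GC and length trend removed. The log2 differences by genotype were -0.82 in siNS, -0.17 in siDCAF8, -0.21 in oeWDR76 and -0.45 in siDCAF8+siLSH, and in siDCAF8 the libraries overlapped. The sources of the fall differed: NEDD4 fell and NEDD4L rose in siNS, whereas in siDCAF8 both rose.

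**Figure D3:**
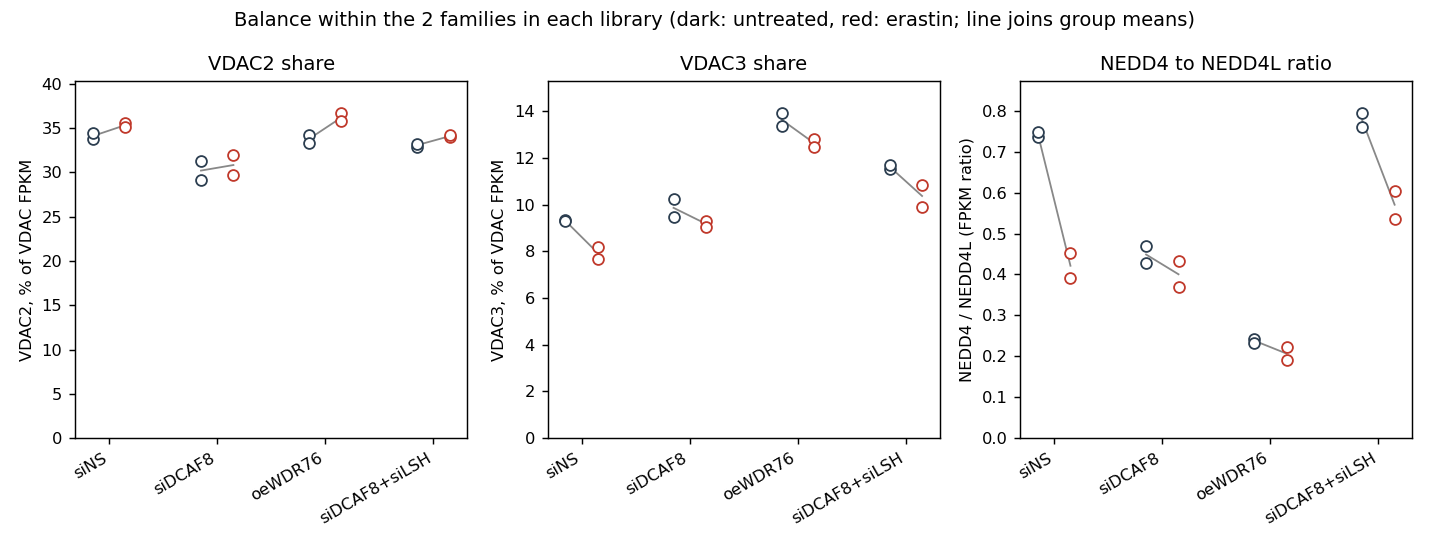
Share of VDAC2 and of VDAC3 in the summed FPKM of the 3 VDACs (left and middle panels, percent) and the NEDD4 to NEDD4L FPKM ratio (right panel) in each library (circles, dark untreated, red erastin; lines join group means), by genotype on the x axis. With erastin the mean VDAC2 share is higher, the mean VDAC3 share is lower and the mean ratio is lower in each of the 4 genotypes.

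Depletion of DCAF8 alone went with less VDAC2 and more NEDD4L. Against siNS without erastin, 3 of 5 members were called, which is near the share of 61% over all genes (31% higher, 29.9% lower). VDAC2 fell by 0.23 (SE 0.05, adjusted p = 0.00153), NEDD4 fell by 0.27 (SE 0.09, adjusted p = 0.0141) and NEDD4L rose by 0.41 (SE 0.07, adjusted p = 5.34e-05). With erastin, 64.8% of genes were called (34.8% higher, 30% lower), and VDAC2 was lower by 0.28 (adjusted p = 0.000274), NEDD4 higher by 0.41 (adjusted p = 0.000625) and NEDD4L higher by 0.50 (adjusted p = 5.68e-06). The NEDD4 difference thus had opposite signs without and with erastin, and the VDAC2 and NEDD4L differences kept theirs. VDAC1 and VDAC3 were not called in either (log2 between -0.00 and 0.12), although VDAC3 with erastin was called at 0.21 (adjusted p = 0.0421) without the second erastin library of siNS. The untreated NEDD4 call was lost without the first siNS library (-0.25, adjusted p = 0.0681) and without the first siDCAF8 library (-0.24, adjusted p = 0.0730). Both calls of VDAC2 and of NEDD4L stayed in every alternative run.

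In the libraries labelled siDCAF8+siLSH the VDACs were higher than in siNS without erastin, and NEDD4 and NEDD4L were not called different from it, while HELLS RNA itself stood at the siNS level. Against siNS without erastin, VDAC1 rose by 0.23 (SE 0.05, adjusted p = 0.000656), VDAC2 by 0.22 (SE 0.05, adjusted p = 0.00198) and VDAC3 by 0.57 (SE 0.07, adjusted p = 2.56e-06). These are 3 of 5 members, which is near the share of 66.8% over all genes (35.9% higher, 30.9% lower). NEDD4 (0.03, interval -0.16 to 0.21) and NEDD4L (-0.04, interval -0.18 to 0.11) were not called. With erastin (66% of genes called, 39.3% higher and 26.7% lower) VDAC3 was higher by 0.44 (adjusted p = 4.37e-05) and NEDD4 by 0.30 (adjusted p = 0.00639), and VDAC1, VDAC2 and NEDD4L were not called. That NEDD4 value was 0.18 (adjusted p = 0.124) without the first erastin library of siNS.

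Set against siDCAF8 itself, siDCAF8+siLSH differed in all 5 members without erastin, where 48.2% of genes were called (26.4% higher, 21.7% lower). VDAC1 was higher by 0.21 (adjusted p = 0.00287), VDAC2 by 0.45 (adjusted p = 7.20e-06), VDAC3 by 0.55 (adjusted p = 1.55e-05) and NEDD4 by 0.29 (adjusted p = 0.0109), and NEDD4L was lower (-0.45, adjusted p = 5.29e-05). With erastin (49.7% called, 30.4% higher and 19.3% lower) VDAC2 was higher by 0.30 (adjusted p = 0.000313), VDAC3 by 0.32 (adjusted p = 0.00159) and NEDD4L lower (-0.60, adjusted p = 2.07e-06). NEDD4L is the member with the largest difference between the siDCAF8 and siDCAF8+siLSH groups under erastin, 28.4 and 30.7 against 20.3 and 17.9 FPKM. The DCAF8 level also differed: siDCAF8+siLSH lay above siDCAF8 by 0.37 untreated (adjusted p = 0.00156) and by 0.54 under erastin (adjusted p = 4.54e-05), so the lesser depletion of DCAF8 and the siRNA to LSH cannot be told apart in these values. WDR76 was likewise higher in siDCAF8+siLSH, by 0.48 untreated (adjusted p = 0.00162) and by 0.47 under erastin (adjusted p = 0.00193). The untreated NEDD4 call was lost without the first siDCAF8 library (0.27, adjusted p = 0.0700), without the second siDCAF8+siLSH library (0.24, adjusted p = 0.0909) and with the GC and length trend removed (0.17, adjusted p = 0.0801).

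Overexpression of WDR76 went with less NEDD4 and more VDAC3. NEDD4 stood at 11.7 and 11.4 FPKM in siNS and 4.47 and 4.02 in oeWDR76, a fall by 1.26 (SE 0.09, limma adjusted p = 1.31e-09). With erastin it stood at 7.88 and 9.49 against 4.80 and 4.0, a fall by 0.84 (adjusted p = 1.48e-07). VDAC3 rose by 0.77 without erastin (SE 0.07, adjusted p = 5.50e-08) and by 0.81 with it (adjusted p = 2.36e-08), from 34.8 and 33.4 to 57.2 and 60.3 FPKM without erastin. VDAC2 rose by 0.22 (adjusted p = 0.00193) and 0.19 (adjusted p = 0.00520). VDAC1 rose by 0.13 without erastin (adjusted p = 0.0331) and was not called with it (0.01, adjusted p = 0.928), and NEDD4L rose by 0.18 without erastin (adjusted p = 0.0211) and was not called with it (0.05, adjusted p = 0.550). All 5 members were called without erastin and 3 with it, beside 73.6% (41.6% higher, 32% lower) and 76.2% (45.2% higher, 31% lower) of all genes.

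These oeWDR76 differences depend on the scaling to unlike degrees. With the GC and length trend removed, NEDD4 was lower by a smaller amount (-0.87 without and -0.43 with erastin, adjusted p = 4.98e-08 and 7.94e-05) and VDAC3 was higher by 0.60 and 0.57 (adjusted p = 5.09e-07 and 8.45e-07). NEDD4L then rose by 0.46 and 0.34, and VDAC2 was no longer called (0.12, adjusted p = 0.0513, and 0.03, adjusted p = 0.594). VDAC1 turned from 0.13 to -0.02 without erastin and from 0.01 to -0.20 with it (adjusted p = 0.000273). Under quantile normalization VDAC1 was lower in both (-0.14, adjusted p = 0.0107, and -0.26, adjusted p = 9.31e-05), and VDAC2 stood at -0.03 and -0.06, not called. Under median-ratio scaling VDAC1 (0.05) and NEDD4L (0.11) were not called without erastin, nor VDAC2 with it (0.07). NEDD4L with erastin stood at -0.07 under median-ratio scaling and at -0.10 under quantile normalization, neither called. The direction for NEDD4 and VDAC3 was the same under all 4 scalings, and for VDAC1, VDAC2 and NEDD4L it was not. Preparation batches are not labelled, and a batch made up of oeWDR76 libraries and an effect of WDR76 cannot be told apart.

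**Figure D4:**
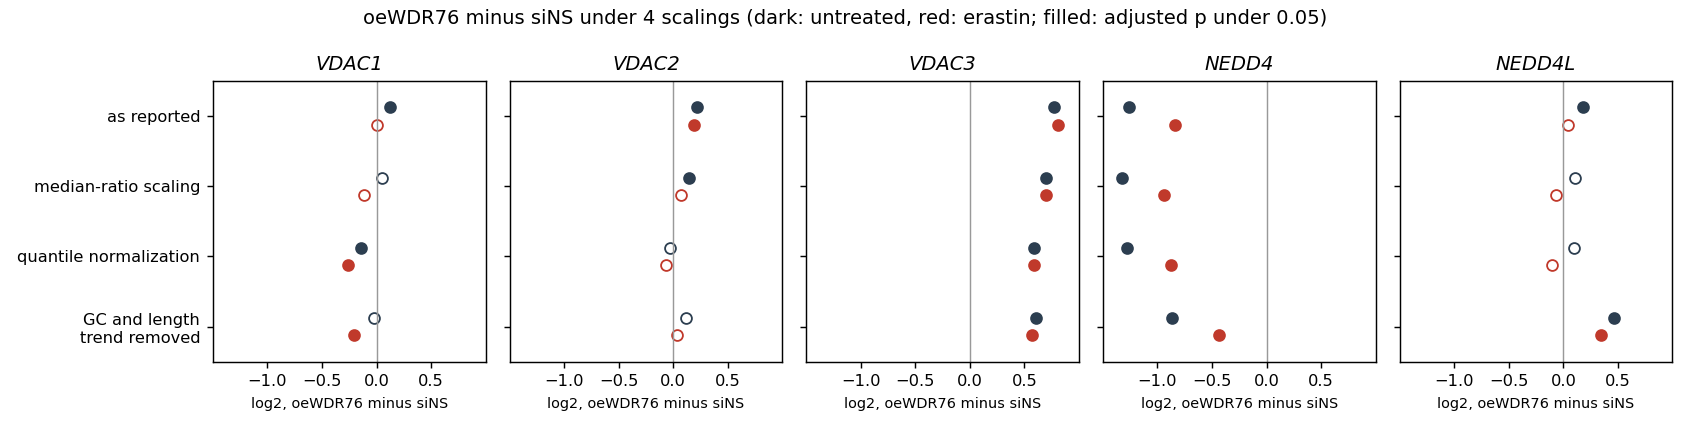
oeWDR76 minus siNS on the log2 scale (x axis) for each member under 4 scalings (y axis), dark without and red with erastin, filled where the adjusted p was under 0.05. NEDD4 stays below 0 and VDAC3 above 0 throughout, while VDAC1 lies at 0.13 as reported and at -0.14 after quantile normalization without erastin.

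VDAC3 made up 9.30% of the VDAC sum in siNS, 9.86% in siDCAF8, 11.6% in siDCAF8+siLSH and 13.6% in oeWDR76 without erastin. The VDAC2 share was lowest in siDCAF8, at 30.2%, against 33.1% to 34.1% in the other untreated groups. VDAC3 and VDAC2 had a Pearson's r of 0.70 over the 16 libraries (log2 FPKM plus 1), VDAC3 and NEDD4 one of -0.64, and NEDD4 and NEDD4L one of -0.00. These are descriptions over libraries that share groups, and the paralogous ligases did not vary together. The genes whose levels followed each member most closely over the 16 libraries were GTF2B (r = 0.90), MRPL50 and POMP for VDAC1, EPDR1 (0.95), PSMD14 and COX7C for VDAC2, RPA2 (0.99), RFC4 and CACYBP for VDAC3, ANKRD12 (0.99), USP8 and RB1 for NEDD4, and RAB11FIP5 (0.94), DOCK5 and MTUS1 for NEDD4L.

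NEDD4 and NEDD4L belong to a family of 9 human ligases with a C2 domain, WW domains and a HECT domain. Of the 7 others, 6 were tested and HECW1 was below the filter, at 0.12 to 0.30 FPKM. With erastin, 0 rose and 1 fell in siNS, 3 rose in siDCAF8, 0 passed in oeWDR76 and 1 rose in siDCAF8+siLSH, beside 37.5%, 40.9%, 1.45% and 20.2% of all genes called. In siNS SMURF2, a ligase of TGF-beta pathway proteins, fell by 0.38 (adjusted p = 0.00219), from 15.3 and 16.1 to 10.9 and 12.9 FPKM. In siDCAF8 ITCH, a ligase known from immune regulation, rose by 0.56 (adjusted p = 1.69e-05), from 13.3 and 14.4 to 20.1 and 21.5 FPKM, with HECW2 at 0.35 (adjusted p = 0.0140) and WWP1 at 0.19 (adjusted p = 0.0409). WWP1 was not called with the GC and length trend removed (0.06, adjusted p = 0.457), nor without the first siDCAF8 library (0.11, adjusted p = 0.337). HECW2 was not called without the second siDCAF8 library (0.28, adjusted p = 0.107) or without either erastin library of siDCAF8 (adjusted p = 0.0576 and 0.0528). The median over the 6 ligases was -0.07 in siNS and 0.12 in siDCAF8, against -0.03 and -0.02 over all genes.

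The siDCAF8 response exceeded that of siNS for ITCH by 0.56 (limma adjusted p = 0.00101) and for SMURF2 by 0.41 (adjusted p = 0.0209), 2 of the 6 ligases beside 20.8% of all genes called. For SMURF2 the call was lost without the second siNS, the first erastin siNS, the second siDCAF8 or the second erastin siDCAF8 library, with values of 0.30 to 0.39. In siDCAF8+siLSH the response was below that in siDCAF8 for ITCH (-0.35, adjusted p = 0.0201) and HECW2 (-0.51, adjusted p = 0.0243). With the GC and length trend removed those were -0.20 (adjusted p = 0.182) and -0.41 (adjusted p = 0.137). As with NEDD4, then, the siDCAF8-siNS difference of ITCH held in every alternative run and the siLSH difference did not.

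**Figure D5:**
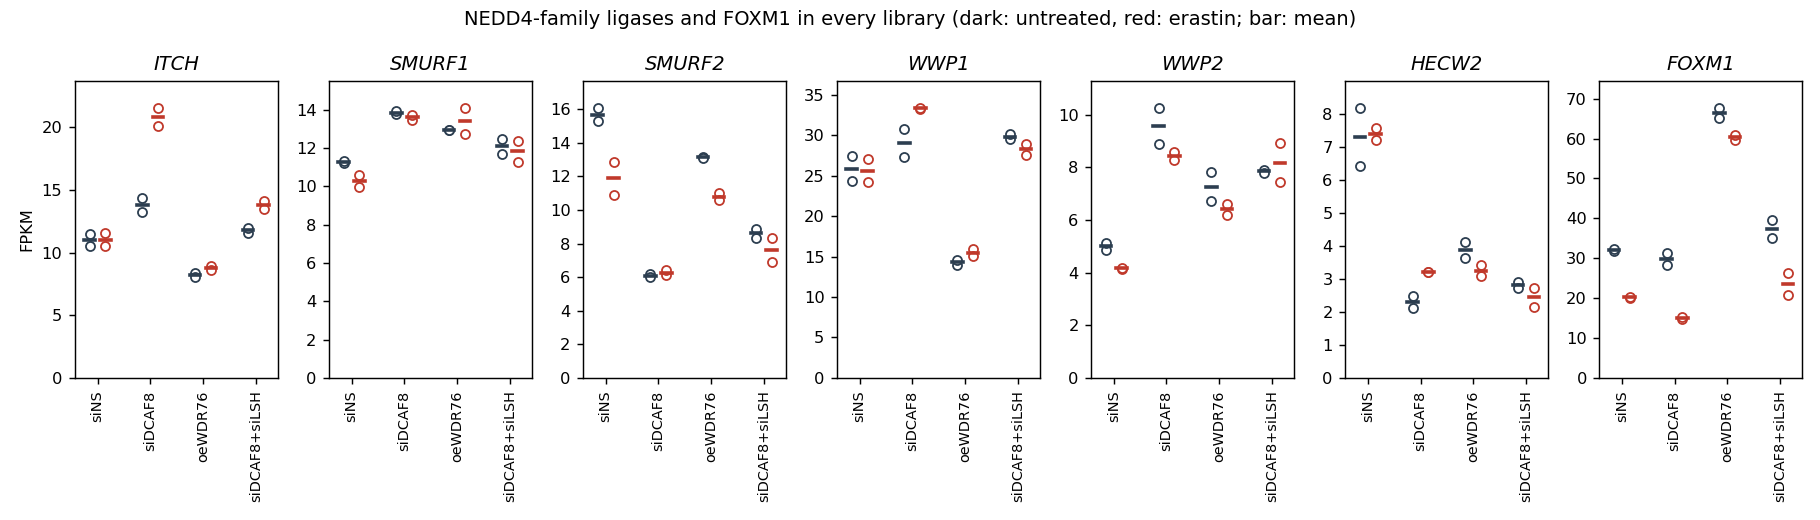
FPKM of 6 NEDD4-family ligases and FOXM1 (y axes, each from 0) by genotype (x axis), circles for libraries and bars for means of n = 2, dark untreated and red erastin. ITCH rises with erastin in siDCAF8, SMURF2 and HECW2 without erastin are lower in the 3 other genotypes than in siNS, and FOXM1 is highest in oeWDR76.

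Between genotypes the family moved both ways. SMURF2 fell by 1.24 (adjusted p = 3.51e-09) and HECW2 by 1.32 (adjusted p = 2.23e-08) in siDCAF8 without erastin, while WWP2 rose by 0.81 (adjusted p = 7.06e-07), ITCH by 0.30 (adjusted p = 0.00121) and SMURF1 by 0.27 (adjusted p = 0.00179). In oeWDR76 without erastin 4 fell, led by WWP1 at -0.81 (adjusted p = 2.71e-08) and HECW2 at -0.76 (adjusted p = 5.68e-06; -0.48 with the GC and length trend removed), and 2 rose, led by WWP2 at 0.46 (adjusted p = 0.000175). NEDD4, with its fall by 1.26, was lower there than any of the other 6 relative to siNS. The ITCH difference in oeWDR76 with erastin turned from -0.29 to 0.03 with the GC and length trend removed. In siDCAF8+siLSH without erastin 2 rose and 2 fell, with HECW2 at -1.11 (adjusted p = 1.03e-07) and SMURF2 at -0.79 (adjusted p = 3.49e-07). Of all genes 61% were called in siDCAF8, 73.6% in oeWDR76 and 66.8% in siDCAF8+siLSH without erastin. The count of ligases called in siDCAF8+siLSH is near that share.

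FOXM1, the cell-cycle factor reported to raise NEDD4 in melanoma cells, moved with NEDD4 under erastin in siNS and opposite to it in siDCAF8. In siNS it stood at 31.9 and 32.2 FPKM and with erastin at 20.1 and 20.3, a fall by 0.64 (adjusted p = 2.96e-05). In siDCAF8, where NEDD4 rose with erastin, FOXM1 stood at 31.4 and 28.3 without and 14.7 and 15.4 with erastin, a fall by 0.94 (adjusted p = 8.52e-07). Between the libraries labelled siDCAF8+siLSH, FOXM1 fell by 0.65 with erastin (adjusted p = 7.25e-05). In oeWDR76, where NEDD4 was lowest, FOXM1 was highest, at 65.3 and 67.7 FPKM without and 59.7 and 60.9 with erastin, and the erastin difference there was not called (-0.14, adjusted p = 0.506). Its response in oeWDR76 exceeded that in siNS by 0.50 (adjusted p = 0.0124). Against siNS without erastin FOXM1 rose by 1.03 in oeWDR76 (adjusted p = 1.30e-08), and in siDCAF8 it was not called (-0.10, adjusted p = 0.327). The NEDD4 rise in siDCAF8 was not called with the GC and length trend removed (0.14, limma adjusted p = 0.161). The oeWDR76 levels carry the GC slope of those libraries. A link between FOXM1 and NEDD4 was not tested.

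Among 23 adaptors and regulators of the family (FOXM1 included), 20 were tested. With erastin 1 rose and 5 fell in siNS, 5 rose and 4 fell in siDCAF8, 1 fell in oeWDR76, and 2 rose and 7 fell in siDCAF8+siLSH. Over all genes 37.5%, 40.9%, 1.45% and 20.2% were called, so the count in siDCAF8 is near that share. TXNIP, an arrestin-like protein that binds ITCH and is known for restraining glucose uptake, fell by 1.67 in siNS (adjusted p = 1.24e-07) and by 0.92 in siDCAF8 (adjusted p = 5.33e-05). YWHAG, a 14-3-3 protein, rose by 0.45 in siNS (adjusted p = 8.71e-06), and ARRDC3, an arrestin-like adaptor, rose by 0.58 in siDCAF8 (adjusted p = 0.000484). In oeWDR76 without erastin 11 rose and 6 fell: NDFIP2, a membrane adaptor that activates the family, fell by 1.23 (adjusted p = 3.02e-10), TXNIP fell by 2.79 (adjusted p = 1.04e-11), and SFN, also a 14-3-3 protein, rose by 3.14 (adjusted p = 2.52e-14). In siDCAF8 without erastin 9 rose and 4 fell, and in siDCAF8+siLSH 9 rose and 4 fell, beside 73.6%, 61% and 66.8% of all genes called in oeWDR76, siDCAF8 and siDCAF8+siLSH. In siDCAF8 with erastin 14 rose and 1 fell against siNS with erastin (34.8% and 30% of all genes), with a median of 0.31 against 0.03 over all genes.

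Of 9 ubiquitin-conjugating enzymes listed as serving HECT ligases, all tested, 8 rose and 0 fell in oeWDR76 without erastin (median 0.39 against 0.07 over all genes, with 41.6% of all genes called higher). That count was not repeated under the other scalings. UBE2L6 rose in untreated oeWDR76 by 1.54 (limma adjusted p = 5.83e-13), with a lowest value of 1.16 over the alternatives. It fell by 0.59 in siDCAF8 (adjusted p = 1.80e-07), and by 0.68 in the libraries labelled siDCAF8+siLSH (adjusted p = 2.46e-08). With erastin 2 rose and 0 fell in siNS, beside 15.1% of all genes higher and 22.4% lower. UBE2E2 rose there by 0.29 (adjusted p = 0.00491) and UBE2L6 by 0.22 (adjusted p = 0.00668). UBE2L6 was not called without the first siNS library (0.18, adjusted p = 0.0656). Of 16 substrates of NEDD4 or NEDD4L, 9 were tested. With erastin in siNS, IGF1R, the IGF1 receptor, rose by 0.33 (adjusted p = 0.00482), and SCNN1A, a subunit of the epithelial sodium channel, fell by 0.34 (adjusted p = 0.0130). The SCNN1A call was lost without the second siNS library (adjusted p = 0.0661), without the second erastin siNS library (-0.25, adjusted p = 0.130) and under quantile normalization (-0.26, adjusted p = 0.0521), and its value was -0.65 with a pseudocount of 0.1. In oeWDR76 without erastin 1 rose and 5 fell, beside 41.6% of all genes higher and 32% lower. TGFBR1, a TGF-beta receptor, led the falls at -0.86 (adjusted p = 7.26e-09) and stood at -0.51 with the GC and length trend removed. In siDCAF8+siLSH without erastin 3 rose and 6 fell, TGFBR1 by 0.87 (adjusted p = 1.31e-08), beside 35.9% of all genes higher and 30.9% lower.

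Of 20 proteins known to bind or work beside VDACs, 17 were tested. With erastin 2 rose and 3 fell in siNS, 4 rose and 1 fell in siDCAF8, 1 fell in oeWDR76 and 5 rose in siDCAF8+siLSH, with medians between -0.01 and 0.02. The called shares of all genes were 37.5%, 40.9%, 1.45% and 20.2%, so 5 of 17 in siNS and in siDCAF8 is below them. PPIF, cyclophilin D of the permeability transition pore, rose by 0.50 in siNS with erastin (adjusted p = 2.53e-05), and MCL1, an anti-apoptotic BCL2 relative, fell by 0.33 (adjusted p = 0.000542) but rose by 0.28 in siDCAF8 (adjusted p = 0.00192). Without erastin PPIF was higher than in siNS in each of the 3 other genotypes, by 0.87 in siDCAF8, 1.12 in oeWDR76 and 0.80 in siDCAF8+siLSH (adjusted p at most 2.23e-08). ITPR1, a calcium channel that contacts VDAC at the endoplasmic reticulum, fell by 0.62, 0.71 and 0.93 in the same order, and by 0.38 in oeWDR76 with the GC and length trend removed. BAX, which permeabilizes the outer membrane, rose by 0.47 in oeWDR76 (adjusted p = 6.63e-06) but stood at -0.15 with the GC and length trend removed (adjusted p = 0.0275).

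The machinery that brings VDACs into the outer membrane was measured with 12 genes, all tested. With erastin 2 rose in siNS, MTX3 by 0.42 (adjusted p = 0.000140) and TOMM40L by 0.29 (adjusted p = 0.00131). In siDCAF8 4 rose and 2 fell, in oeWDR76 0 passed, and in siDCAF8+siLSH 1 fell, beside 37.5%, 40.9%, 1.45% and 20.2% of all genes called in siNS, siDCAF8, oeWDR76 and siDCAF8+siLSH. Without erastin 7 rose and 2 fell in siDCAF8, 6 rose and 4 fell in oeWDR76, and 8 rose and 1 fell in siDCAF8+siLSH, with medians of 0.17, 0.14 and 0.35 against 0.01, 0.07 and 0.03 over all genes. Of all genes 31%, 41.6% and 35.9% rose and 29.9%, 32% and 30.9% fell in these comparisons. TOMM22, a receptor of the import pore, rose by 1.12, 0.97 and 1.17 and TOMM40, the pore itself, by 0.86, 0.64 and 1.04 in that order (adjusted p at most 6.69e-07). With the GC and length trend removed TOMM40 in oeWDR76 stood at 0.18 (adjusted p = 0.0213). SAMM50, the core of the complex that inserts barrels such as VDAC, ran from 39.2 to 55.8 FPKM over all libraries. Of the Parkin axis, which tags VDACs on damaged mitochondria, 2 of 3 genes were tested: PINK1, the kinase that recruits Parkin, fell by 0.20 in siNS with erastin (adjusted p = 0.0147). That PINK1 call was lost with the GC and length trend removed (-0.11, adjusted p = 0.0713) and without the second siNS or second erastin siNS library. Erastin raised PINK1 by 0.40 (adjusted p = 0.000163) and USP30, a mitochondrial deubiquitylase, by 0.35 (adjusted p = 0.00657) in siDCAF8+siLSH.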

How the data were processed

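RNA of HT-1080 cells was amplified with Smart-seq v4, made into libraries with a NEBNext kit and sequenced on a BGISEQ500, per the labels' protocols. The authors deposited 1 table of FPKM per gene and library to 2 decimals, and the submitters' processing notes name StringTie and GRCh38, with no version; the aligner, not given in the sources used here, is unknown. Of 24107 rows, 17552 have values. It gives no counts, so the depth is unknown and no counting interval is given; between replicates, Pearson's r was 0.996 to 0.997.

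Groups came from the labels. limma 3.58.1 in R 4.3.3 was fitted to log2(FPKM + 1) of the 11260 genes whose mean reached 1 FPKM, with 8 group means, a mean-variance trend, 16 contrasts and Benjamini-Hochberg adjustment within each (8 residual and 8.57 prior degrees of freedom). Shares and ratios were tested by exact permutation. Python 3.11.15 with pandas 2.3.3, numpy 2.4.6 and matplotlib 3.10.9 made the other tables and plots. GC content, known for 98.5% of tested genes, came from GENCODE v29 transcripts, and windows before starts came from RefSeq GRCh38.p14.

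The members, the 7 gene lists and the alternatives were chosen with earlier results of these data known. Named beside the members are all tested family ligases, FOXM1, the targeted genes, the 3 genes most correlated with each member, and, from each list, up to 2 called genes with the largest rise and the largest fall in the erastin and untreated contrasts; not all of those are printed. Alternatives were a pseudocount of 0.1, no filter, a mean FPKM of at least 5, median-ratio scaling, quantile normalization, removal of a GC and length trend, a replicate block, fits restricted to the compared groups, and dropping single libraries. The same alternatives for genes that are not members were chosen after seeing the data. No sequence of VDAC3 or of any protein is printed. TYR, also a melanocyte marker, was looked up and not found among the genes with values. One result from the substrate list is not reported here.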

Additional observations from a re-analysis of the deposited data

Results flagged for a closer look

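The erastin response differed between genotypes, by a direct test of the difference, for 1 member and for 6 other genes described above. For NEDD4 the response in siDCAF8 minus that in siNS was 0.67 (limma adjusted p = 0.00141), that in oeWDR76 minus siNS was 0.42 (adjusted p = 0.0332), and that in siDCAF8+siLSH minus siDCAF8 was -0.40 (adjusted p = 0.0291). For ITCH the siDCAF8 minus siNS value was 0.56 (adjusted p = 0.00101) and the siDCAF8+siLSH minus siDCAF8 value was -0.35 (adjusted p = 0.0201). For SMURF2 the siDCAF8 minus siNS value was 0.41 (adjusted p = 0.0209), for HECW2 the siDCAF8+siLSH minus siDCAF8 value was -0.51 (adjusted p = 0.0243), and for FOXM1 the oeWDR76 minus siNS value was 0.50 (adjusted p = 0.0124). Of the targeted genes, WDR76 had a siDCAF8 minus siNS value of -0.45 (adjusted p = 0.0471), which was lost with the replicate block (adjusted p = 0.0511), with no filter (adjusted p = 0.134) and without any of 12 single libraries. HELLS had a siDCAF8+siLSH minus siDCAF8 value of -0.40 (adjusted p = 0.0126), which was -0.15 (adjusted p = 0.443) with the GC and length trend removed, and was lost without the first siDCAF8 library (-0.35, adjusted p = 0.0613) or the first erastin library of siDCAF8+siLSH (-0.35, adjusted p = 0.0511). Over all tested genes the same tests called 20.8%, 14.1% and 23.5% for siDCAF8 minus siNS, oeWDR76 minus siNS and siDCAF8+siLSH minus siDCAF8. Groups of 2 libraries are too small for a test of single outlying libraries.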

How the results depend on the processing

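Of 1915 values of single members under the alternatives, 1851 kept their side of the threshold without a change of a called direction, 44 lost the call, 14 gained one and 6 reversed. A sign change between values uncalled under both settings, seen in 41, was counted as no reversal. The 6 reversals are all in oeWDR76 against siNS: VDAC1 to -0.14 without and -0.26 with erastin and VDAC2 to -0.028 and -0.062 under quantile normalization, and VDAC1 to -0.020 and -0.20 with the GC and length trend removed. Of the other named genes (4463 values over 187 gene and comparison pairs), 267 lost the call, 5 gained one and 2 reversed: BAX in untreated oeWDR76 to -0.15 and ITCH in oeWDR76 with erastin to 0.035, both with the GC and length trend removed.

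The count of called members changed by over 1.5 times as follows. With no filter it was 1 for erastin in siDCAF8+siLSH and 0 for the response differences of oeWDR76 from siNS and of siDCAF8+siLSH from siDCAF8 (2, 1 and 1 as reported). With median-ratio scaling it was 3 for untreated oeWDR76 against siNS (5 as reported). With quantile normalization it was 4 for erastin in siDCAF8 (2 as reported), 3 for untreated oeWDR76 and 2 for the siDCAF8+siLSH response difference. With the GC and length trend removed it was 1 for erastin in siDCAF8, 1 for erastin in oeWDR76 (NEDD4L, 0 as reported), 3 for untreated oeWDR76, 2 for the oeWDR76 response difference and 0 for the siDCAF8+siLSH one. In a fit of only the groups compared it was 1 for erastin in siDCAF8+siLSH and 0 for the oeWDR76 response difference. The cause was not tested.

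Leaving out each library in turn gave 1 to 3 called members for erastin in siNS, 1 to 2 in siDCAF8, 1 to 2 in siDCAF8+siLSH, 3 to 5 for untreated oeWDR76 against siNS, 1 to 3 for siDCAF8+siLSH against siNS with erastin, and 0 to 1 for the oeWDR76 and the siDCAF8+siLSH response differences. The libraries behind the lost calls are named in the results above, except that VDAC1 and NEDD4L in untreated oeWDR76 lost theirs without the second siNS or the first oeWDR76 library, VDAC1 also without the second oeWDR76 library. Where an arm kept 1 library, that library was assumed to vary like the other groups.

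The summed VDAC difference was 0.0747 without the siDCAF8+siLSH genotype (exact permutation p = 0.00926). The VDAC1 share reversed to 0.150 points without oeWDR76, and leaving out single libraries gave -0.500 to 0.0154, with the positive value without the second erastin library of siDCAF8. The VDAC2 share was no longer called at 1.35 points without siNS, 0.956 without oeWDR76 and 1.43 without siDCAF8+siLSH, and leaving out single libraries gave 1.03 to 1.61, with the call lost without the second untreated or second erastin library of siDCAF8.

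Over all tested genes, erastin in oeWDR76 called 163 genes as reported, 84 with no filter and 270 in a fit of only those groups. The siDCAF8+siLSH response difference called 2642, 1755 with no filter, 1696 in a fit of only those groups and 239 with the GC and length trend removed.

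The labels pair no libraries. Replicate differences of untreated and erastin groups correlated at -0.176 in siNS, -0.026 in siDCAF8, 0.123 in oeWDR76 and 0.038 in siDCAF8+siLSH, so the numbers were not treated as pairs. With the replicate block, 80 of 80 member results kept their call, such as the NEDD4 response difference of siDCAF8 from siNS at 0.67. Among the other named genes, WDR76 lost its response difference of siDCAF8 from siNS (adjusted p = 0.0511), and ITPR1 with erastin in oeWDR76 (adjusted p = 0.0540) and UBE2D4 in untreated siDCAF8 (adjusted p = 0.0530) lost theirs. The depth is unknown, and 2 libraries a group limit the precision.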
